A study of Mus musculus with 8 samples.

Results

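The miR-29 family was described in callus of the mouse femur, the repair tissue that fills a fracture gap, at 7 days after osteotomy. Members were all mature arms named miR-29 among the 1079 murine miRs on the array. There were 7 of them, namely mmu-miR-29a-3p, mmu-miR-29b-3p and mmu-miR-29c-3p, the arms usually loaded as guides, and mmu-miR-29a-5p, mmu-miR-29b-1-5p, mmu-miR-29b-2-5p and mmu-miR-29c-5p, their partners in the hairpins. All animals were CD-1 mice between 9 and 14 weeks old, of both sexes, with a femoral osteotomy held by a pin and a clip. In the Union group (4 mice, P17 to P20) the gap measured 0.25 mm. In the Non-union group (4 mice, P13 to P16) it measured 1.8 mm, and the periosteum was also stripped over 2 mm on either side, so that gap size and stripping cannot be told apart. On day 7 the outcome of healing cannot be seen yet, and the group names stand for the course that each procedure is known to lead to. Each specimen was hybridized to 1 array, and the comparison asks which miRs differ early between a course towards union and a course towards nonunion.

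MiRs are short RNAs that guide a silencing complex to messenger RNAs, mostly by pairing of the seed near their 5′ end. The miR-29 family is known for its many targets among genes of the extracellular matrix, including collagens of type I, III and IV, elastin and fibrillin, and it falls in many fibrotic tissues. In osteoblasts it is known to rise during differentiation and to repress osteonectin and several inhibitors of Wnt signalling.

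The mature sequences, from RefSeq (GRCm38.p6, all 7 matched by name), are shown because the 3 guide arms are nearly the same molecule. They run 5′ to 3′, and capitals mark the seed, bases 2 to 8.
miR-29a-3p: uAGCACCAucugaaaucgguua
miR-29b-3p: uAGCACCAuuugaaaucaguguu
miR-29c-3p: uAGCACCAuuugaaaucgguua
miR-29a-5p: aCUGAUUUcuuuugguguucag
miR-29b-1-5p: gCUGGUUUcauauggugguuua
miR-29b-2-5p: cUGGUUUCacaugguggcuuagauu
miR-29c-5p: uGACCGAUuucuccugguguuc

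The seed AGCACCA is shared by the 3 guide arms and by no other of the 1679 mature names in the RefSeq table. Counted from 1 at the 5′ end, miR-29a-3p and miR-29c-3p differ by C10U alone. MiR-29b-3p differs from miR-29c-3p by G18A, U21G and A22U and has 1 further base at its 3′ end. The 4 partner arms have seeds that differ from each other, and that of miR-29b-2-5p is also the seed of miR-6338. The sequences of the array probes were not analysed here, so that binding of a near-identical guide arm to the probes of another was not tested.

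The family comes from 2 pairs of hairpins. Mir29a (chr6:31062660-31062747) and Mir29b-1 (chr6:31063023-31063093) lie on the minus strand of GRCm38.p6 with 275 bases between them and overlap no other gene in the table used. Mir29b-2 (chr1:195037040-195037120) and Mir29c (chr1:195037547-195037634) lie on the plus strand with 426 bases between them, both within A330023F24Rik. MiR-29b-3p is made from 2 of these loci, so that its signal does not tell which pair it came from. The hairpin of Mir29c is given with its 5p arm and then its 3p arm in capitals, since these arms are compared further on.
Mir29c: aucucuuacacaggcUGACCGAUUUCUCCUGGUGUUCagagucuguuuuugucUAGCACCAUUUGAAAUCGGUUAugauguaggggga

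The deposited scanner output gave each miR a background-corrected signal merged over 40 spots, in linear units, and a call of whether it was detected. Between 324 and 391 murine miRs were detected per array, and their merged signals summed to between 183589 and 360063 units. The lowest sum came from P16 and the highest from P17. All 8 arrays lay on 1 slide that was scanned once, and each group filled a row of its own, so that row and group cannot be told apart. P19 and P20, both Union, stood apart in different ways. Without P19 the number of miRs under an unadjusted p of 0.05 went from 43 to 115, or 37.1% of those tested, and P20 had a mean log2 signal of 12.00 over the myeloid markers against 10.01 to 10.16 on the other Union arrays. Results that rest on P19 are given with and without it.

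Among the members, 4 of 7 were detected on all arrays and entered the test, in a background of 310 such murine miRs. These were miR-29a-3p, miR-29b-3p, miR-29c-3p and miR-29b-1-5p. MiR-29c-5p was detected on 7 arrays, miR-29a-5p on 3 and miR-29b-2-5p on none. The 3 guide arms had all 40 spots well above background on every array, and the error that the scanner software gave for their signal was between 7.10% and 8.87%. No spot of a member was saturated, and 117 of 2240 were flagged as outliers by the software.

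None of the 4 tested members reached an unadjusted limma p of 0.05, and in none did the groups separate. Of all 310 miRs, 13.9% reached that p (9.68% higher and 4.19% lower in the Non-union group), 3.87% had groups that did not overlap (2.58% with the Non-union group lower), and 0.323% passed after Benjamini-Hochberg adjustment. With 4 members, a count of 0 cannot be told from that background. All 3 guide arms had lower means in the Non-union group, although that of miR-29a-3p turned higher with scaling to the 75th percentile. The difference was furthest from 0 for miR-29c-3p. The median difference of all tested miRs was 0.15 on the log2 scale, with 126 below 0 and 184 above, and it was -0.10 without normalization. In whole tissue, fewer cells of a type and less RNA per cell cannot be told apart.

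Mmu-miR-29a-3p, a guide arm from the hairpin pair on chromosome 6, had the narrowest range of the family. Its merged signal in the Non-union group was 2518 on P13, 3040.0 on P14, 2605 on P15 and 1847 on P16. In the Union group it was 3432 on P17, 2586 on P18, 2408 on P19 and 2697 on P20. The groups overlapped, with the lowest signal on P16 and the highest on P17, the arrays with the lowest and the highest total signal. After quantile normalization, which gives miRs of equal rank on different arrays the same value, the mean log2 signal was 11.26 ± 0.23 for Non-union and 11.37 ± 0.10 for Union (SD, n = 4 each). The difference was -0.11 ± 0.19 (SE; limma p = 0.563, adjusted p = 0.700, two-sided exact permutation p = 0.457), and the 95% interval of the Non-union to Union ratio ran from 0.691 to 1.24. With each array scaled to its 75th percentile in place of quantile normalization the difference was 0.07, so that its sign is not settled.

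Mmu-miR-29b-3p, the member made from both pairs of hairpins and best known for promoting osteoblast differentiation, likewise had overlapping groups. Its merged signal in the Non-union group was 1549 on P13, 1810.1 on P14, 1496 on P15 and 1051 on P16. In the Union group it was 2110.4 on P17, 1575 on P18, 1355 on P19 and 2196 on P20. P17 and P20 lay above all Non-union arrays, and P18 and P19 lay among them. The normalized log2 signal averaged 10.58 ± 0.30 for Non-union and 10.72 ± 0.21 for Union (SD, n = 4 each). The difference of -0.14 ± 0.21 (SE) was within the spread between arrays (limma p = 0.533, adjusted p = 0.677, two-sided exact permutation p = 0.486), with a ratio of 0.908 and a 95% interval from 0.649 to 1.27.

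Mmu-miR-29c-3p, which differs from miR-29a-3p by a single base, varied the most of the guide arms. Its merged signal in the Non-union group was 540.4 on P13, 857 on P14, 521 on P15 and 335 on P16. In the Union group it was 1751 on P17, 905 on P18, 529 on P19 and 703 on P20. P17 and P18 lay above every Non-union array, P20 lay below P14, and P19 lay below P13 and P14. The highest signal was 5.23 times the lowest, against 2.09 times for miR-29b-3p and 1.86 times for miR-29a-3p.

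On the normalized log2 scale, miR-29c-3p measured 8.88 on P13, 9.57 on P14, 8.88 on P15 and 8.76 on P16, and 10.55 on P17, 9.80 on P18, 9.03 on P19 and 9.45 on P20. The means were 9.02 ± 0.37 for Non-union and 9.71 ± 0.64 for Union (SD, n = 4 each). P14 was the array that kept the groups from separating, since the other 3 Non-union arrays lay below all Union arrays. The difference was -0.69 ± 0.34 (SE; limma p = 0.0743, adjusted p = 0.378, two-sided exact permutation p = 0.0857), a ratio of 0.622 with a 95% interval from 0.365 to 1.06. The smallest p that the permutation of 4 arrays against 4 allows is 0.0286. Of the 310 tested miRs, 21 had a more negative difference.

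The side of the threshold on which miR-29c-3p fell depended on single arrays. Without P19 the difference was -0.92 and passed an unadjusted limma p of 0.05 (adjusted p = 0.0869), while 9.68% of all tested miRs were then lower by that threshold. Without P14 it was -0.86 and passed as well (adjusted p = 0.284), while 5.48% were then lower. Without P17 it was -0.41, the smallest difference in these repeats. The direction was the same under all 18 alternatives, and the adjusted limma p ranged from 0.0869 to 0.630 over them. The filters among them change only which miRs are tested and cannot change this difference. It also stayed at -0.69 with quantile normalization over the detected miRs and with probe sums.

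**Figure D1:**
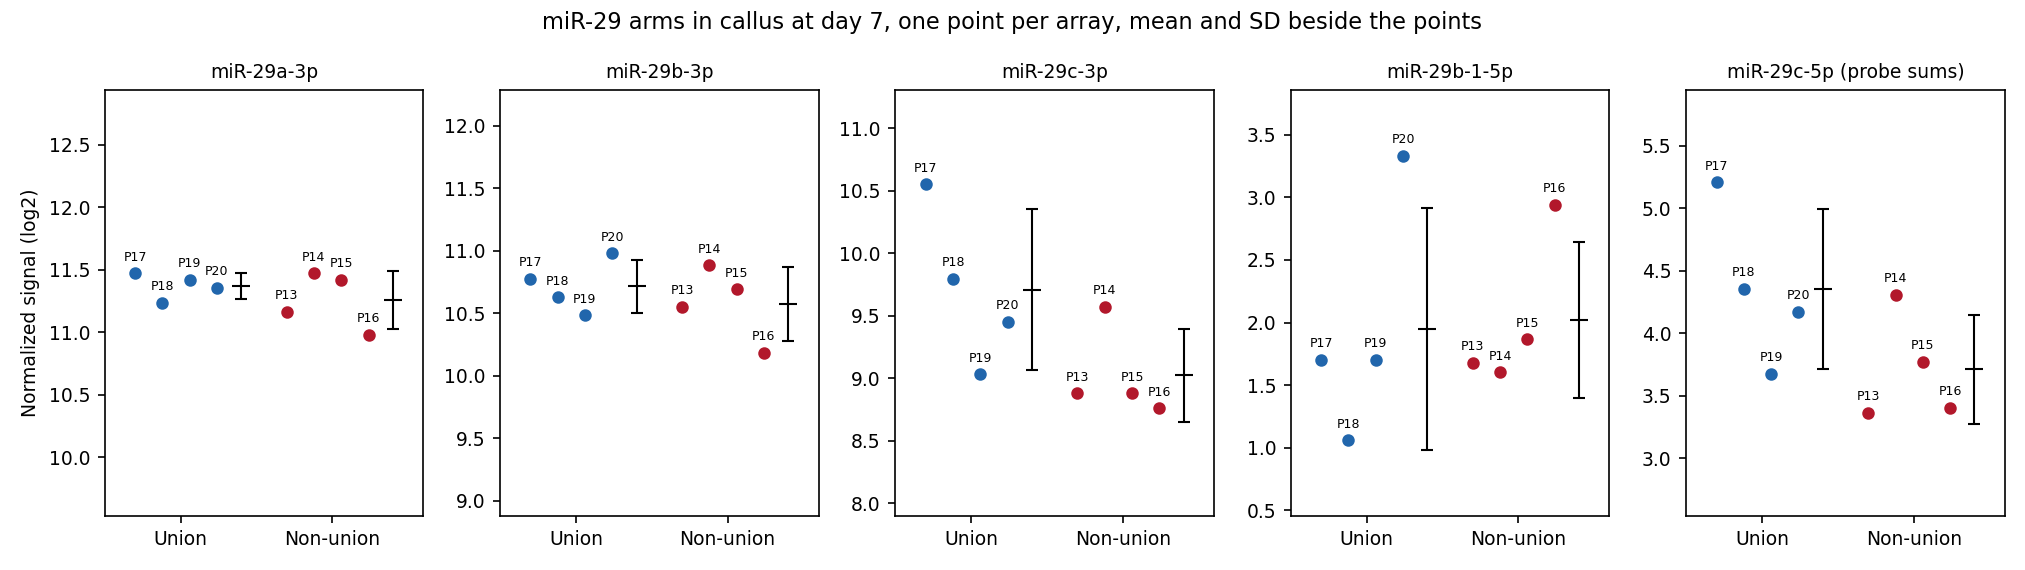
Normalized log2 signal of 5 miR-29 arms (vertical axes, each spanning the same log2 range but starting at a level of its own) on the 4 Union arrays (blue) and the 4 Non-union arrays (red), with the mean and SD of each group beside its points. The groups overlap in every panel, and for miR-29c-3p and miR-29c-5p P17 lies highest and P14 lies above the other Non-union arrays.

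Mmu-miR-29c-5p, the partner arm of the same hairpin, was measured by 2 probes of its own and was faint. The merged signal adds only the probes that were detected on an array, which was both probes on 6 arrays, 1 on P13 and none on P16. Its values were therefore taken as the sum of both probes on every array, an alternative chosen after seeing the data. In the Non-union group the sum was 10.8 on P13, 21.0 on P14, 12.4 on P15 and 6.68 on P16. In the Union group it was 50.7 on P17, 23.6 on P18, 12.8 on P19 and 15.9 on P20. The order of the arrays resembled that of miR-29c-3p, with P17 highest, then P18 and P14, and P16 lowest.

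Normalized with the other probe sums and fitted over 343 miRs, miR-29c-5p measured 3.71 ± 0.44 for Non-union and 4.35 ± 0.64 for Union (SD, n = 4 each) on the log2 scale. The difference was -0.64 ± 0.34 (SE; limma p = 0.0930, adjusted p = 0.364, two-sided exact permutation p = 0.171), a ratio of 0.641 with a 95% interval from 0.376 to 1.09, and the groups overlapped. For this fit a miR needed complete detection in only 1 of the groups, whichever it was. MiR-29c-5p was detected on 4 Union but only 3 Non-union arrays, so that it entered through the Union group alone. Entry by that route favours miRs that are lower in the Non-union group, and the p-values of miR-29c-5p do not allow for it. The same holds without P19 or P14. In this fit 27 of 343 miRs (7.87%), taken through the same filter, were lower at an unadjusted p of 0.05. Among the 310 miRs detected on every array, 14 were lower on probe sums. Without P19 the difference was -0.87 (adjusted p = 0.0918) and without P14 it was -0.85 (adjusted p = 0.233), both past an unadjusted p of 0.05, and the adjusted limma p ranged from 0.0918 to 0.614 over all alternatives. In the same fits 16.7% and 9.28% of the miRs were lower at that p. Without P17 the difference shrank to -0.36 (adjusted p = 0.602). With the merged signal, where P16 stood at the floor of 0.1, it was -2.48, so that its size depends on how the undetected probes are treated.

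The 2 arms of miR-29c moved together over the arrays. On probe sums, Pearson's r was 0.98 (two-sided exact permutation p = 0.000347) and Spearman's rho was 0.92 (exact permutation p = 0.00258) over the 8 arrays. Without P17 and P18, the arrays farthest from the median, r was 0.94, and r of the deviations from the group means was 0.97. The log2 ratio of the 3p to the 5p arm spanned 0.54 over all arrays and its group means differed by 0.21, with overlapping groups. This pair was singled out after its values were seen, and the arms share the total signal of each array.

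Among the 4 members detected on all arrays, 6 pairs were compared on the normalized log2 signal. MiR-29a-3p and miR-29b-3p had the highest correlation, with r = 0.75 (exact permutation p = 0.0295, adjusted over the 6 pairs p = 0.177) and rho = 0.60 (exact permutation p = 0.123, adjusted p = 0.248). Without P13 and P16 r was 0.19, so that the relation rests on those arrays. MiR-29a-3p and miR-29c-3p had r = 0.51 (exact permutation p = 0.205, adjusted p = 0.410) and rho = 0.62 (exact permutation p = 0.103, adjusted p = 0.248), with r = 0.058 without P13 and P16. MiR-29b-3p and miR-29c-3p had r = 0.55 (exact permutation p = 0.166, adjusted p = 0.410) and rho = 0.60 (exact permutation p = 0.124, adjusted p = 0.248), with r = 0.54 without P16 and P20. The 3 pairs with miR-29b-1-5p had r between -0.32 and -0.03, and none of the 6 pairs passed after adjustment. Without normalization 4 of the 6 pairs passed, namely miR-29a-3p with miR-29b-3p (r = 0.88, adjusted p = 0.0197), miR-29a-3p with miR-29c-3p (r = 0.91, adjusted p = 0.0197), miR-29b-3p with miR-29c-3p (r = 0.80, adjusted p = 0.0319) and miR-29b-3p with miR-29b-1-5p (r = 0.80, adjusted p = 0.0297), all by exact permutation. Unnormalized values include the total signal of an array, and which pairs passed depended on the normalization.

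Ratios of guide arms within an array leave out anything that scales the whole array. Relative to the Union mean, the log2 ratio of miR-29c-3p to miR-29a-3p was -0.57 on P13, -0.17 on P14, -0.67 on P15 and -0.81 on P16, and 0.68 on P17, 0.14 on P18, -0.53 on P19 and -0.29 on P20. The group means differed by -0.56, and P14 lay within the Union range. The ratio of miR-29b-3p to miR-29a-3p hardly moved within the Non-union group (SD 0.052, n = 4) and its group means differed by -0.13. P20 stood highest for this ratio at 0.34, above a range of -0.19 to -0.07 on the other 7 arrays. These ratios were not tested.

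**Figure D2:**
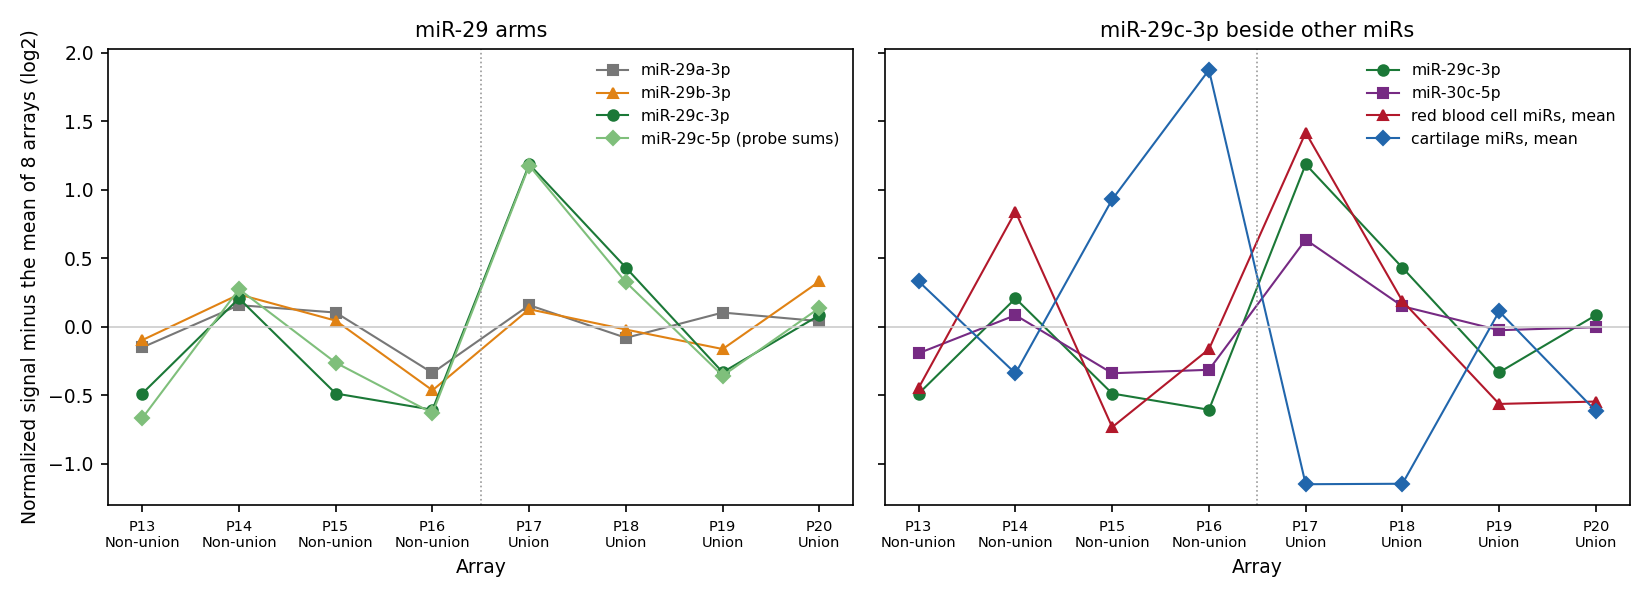
Normalized log2 signal minus the mean of the 8 arrays (vertical axis) on each array (horizontal axis), for 4 miR-29 arms (left panel) and for miR-29c-3p beside miR-30c-5p and the mean of the red cell and of the cartilage miRs (right panel). The arms of miR-29c follow each other with a peak on P17, where the red cell mean is also highest and the cartilage mean lowest.

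The partner arms of the other hairpins were close to the limit of detection. Mmu-miR-29b-1-5p had a merged signal of 5.02 on P13, 4.29 on P14, 4.91 on P15 and 4.19 on P16, and of 7.90 on P17, 5.02 on P18, 4.49 on P19 and 9.02 on P20. P17 and P20, the highest, were also the only arrays on which 2 of its 4 probes were counted in place of 1. After quantile normalization P16, the lowest before, became the second highest with 2.94. The means were 2.02 ± 0.62 for Non-union and 1.95 ± 0.97 for Union (SD, n = 4 each). The difference of 0.07 ± 0.49 (SE; limma p = 0.887, adjusted p = 0.924, two-sided exact permutation p = 0.886) had a 95% interval of the ratio from 0.484 to 2.28 and turned to -0.46 without normalization, so that no direction can be given.

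Mmu-miR-29a-5p was detected on P13 with 2.22 units, on P17 with 3.08 and on P20 with 2.82, close to the lowest detected signal on any array, 2.16 units. It was not detected on the other 5 arrays and was not tested. Mmu-miR-29b-2-5p, the arm that would tell the second miR-29b locus from the first, was not detected on any array. The share of miR-29b-3p from each locus is therefore not resolved here.

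**Figure D3:**
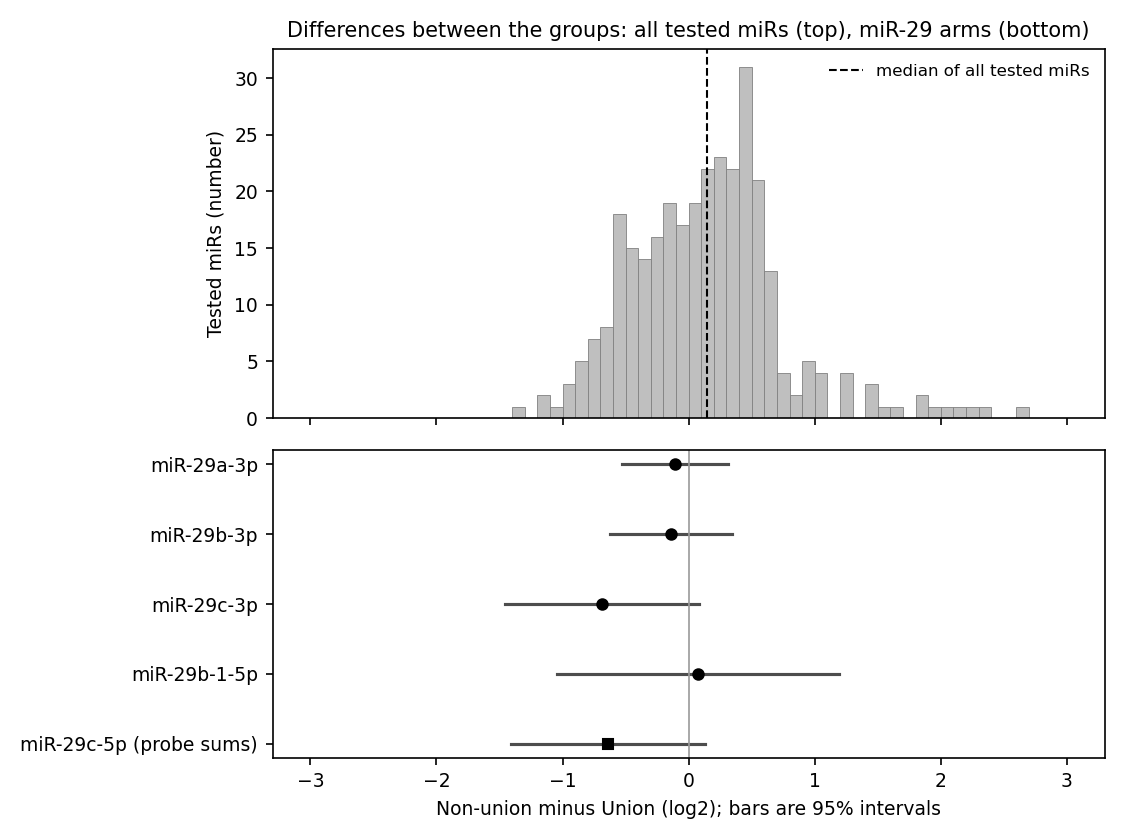
Difference in log2 signal, Non-union minus Union (horizontal axis), as a histogram over the tested miRs with the median of all 310 as a dashed line (top), and for the miR-29 arms with 95% intervals (bottom). MiR-574-3p, at 3.05, lies beyond the last bin of the histogram and is not drawn. The intervals of all members shown include 0, and that of miR-29c-3p runs from -1.45 to 0.08.

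The members were also set beside the other miRs by their spread within groups. For miR-29a-3p, 7.42% of the 310 tested miRs had a smaller SD within groups, and for miR-29b-3p 20.3% did. For miR-29c-3p the share was 64.2% and for miR-29b-1-5p 89.0%, where the median SD was 0.44 on the log2 scale.

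For each guide arm, the 5 miRs outside the family with the most similar profile over the 8 arrays were taken from 306 by Pearson's r, as a description without a test. For miR-29c-3p these were miR-30c-5p (r = 0.97), miR-10b-5p (r = 0.92), miR-144-3p (r = 0.92), miR-30b-5p (r = 0.91) and miR-30a-5p (r = 0.91), where the median r was -0.42. For miR-29a-3p they were miR-378b (r = 0.89), miR-133a-3p (r = 0.88), miR-30e-3p (r = 0.87), miR-5121 (r = 0.87) and miR-378-5p (r = 0.85), where the median r was -0.10. For miR-29b-3p they were miR-5121 (r = 0.87), miR-30e-5p (r = 0.81), miR-30e-3p (r = 0.80), miR-5107 (r = 0.80) and miR-101c (r = 0.78), where the median r was -0.01. Arms of the miR-30 family appeared in all 3 lists. MiR-133a is a muscle miR, and miR-144 belongs to the red cell lineage. Of the 5 miRs nearest to miR-29c-3p, miR-10b-5p alone reached an unadjusted limma p of 0.05, with a difference of -0.42 (adjusted p = 0.346), and it missed that p with scaling to the 75th percentile and when any array other than P14 or P19 was left out.

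Other miRs known for acting on matrix genes or fibrosis had differences in both directions. Of 20 such miRs, all detected on all arrays, 11 had negative and 9 positive differences with a median of -0.07, and without normalization 16 were negative with a median of -0.24. Of all 310 tested miRs, 9.68% were higher and 4.19% lower at an unadjusted limma p of 0.05. On this list none was lower and 2 were higher at that p, which is close to that background. These were miR-199a-5p by 0.69 ± 0.28 (SE, adjusted p = 0.322) and miR-214-3p by 0.75 ± 0.30 (SE, adjusted p = 0.322). Both missed that p when any array other than P14 or P19 was left out. Over all 8 arrays left out in turn, the difference ran from 0.56 to 0.94 for miR-199a-5p and from 0.63 to 1.01 for miR-214-3p. MiR-199a and miR-214 can be made from a shared transcript and are abundant in mesenchymal cells. Of 15 miRs known for acting on osteoblasts, 11 were detected on all arrays, 3 with negative and 8 with positive differences and a median of 0.22, which was 0.09 without normalization. None was lower and 1, again miR-214-3p, was higher at an unadjusted p of 0.05. This too is close to the share of all tested miRs, where 184 of 310 differences were positive, with a median of 0.15.

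Marker miRs of other cell types were read beside the miR-29c values, since callus is a mixed tissue. The 3 measured red cell miRs (miR-451, miR-144-3p and miR-144-5p, with miR-486-5p not analysed here) were detected on all arrays, with a mean log2 signal of 7.33 on P13, 8.61 on P14, 7.04 on P15 and 7.61 on P16, and of 9.19 on P17, 7.96 on P18, 7.21 on P19 and 7.23 on P20. P17, P14 and P18 were the 3 highest arrays for these markers, as they were for both arms of miR-29c. The cartilage miRs (miR-140-3p, miR-140-5p, miR-455-3p and miR-455-5p) were all detected on all arrays and ran the other way, from 6.47 on P14 to 8.69 on P16 in the Non-union group and from 5.67 on P17 to 6.93 on P19 in the Union group. All 4 cartilage miRs were higher in the Non-union group at an unadjusted limma p of 0.05, where 9.68% of all miRs were, with a median difference of 1.43 and adjusted p between 0.288 and 0.313. They are both arms of miR-140 and both arms of miR-455, so that the 4 are not independent of each other. The study had already listed all 4 as relevant on these same arrays. All 4 passed the unadjusted p under each of the other 4 normalizations. With 1 array left out, 2 (without P17) to 4 of them passed and all 4 differences stayed positive, and miR-455-5p passed only without P14 or P19. The part of red cells or cartilage in the miR-29c values was not tested.

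Over the 8 arrays, r of the list mean with miR-29c-3p was 0.84 for red cells, -0.85 for cartilage and -0.85 for the osteoblast miRs. It was 0.44 for skeletal muscle, 0.18 for endothelium, 0.065 for myeloid cells and -0.37 for the matrix miRs. These values were not tested. Of 6 skeletal muscle miRs, 4 were detected on all arrays (not miR-208b-3p and miR-499-5p), with means from 12.33 on P16 to 13.61 on P14 in the Non-union group and from 13.10 to 13.54 in the Union group. P16 was thus lowest and P14 highest for the mean of the muscle markers, and P16 was also lowest for all 3 guide arms. The mean joins miRs with differences in both directions. MiR-206-3p had 0.44, whereas miR-1a-3p had -0.45, miR-133a-3p -0.52 and miR-133b-3p -0.15. Of 4 myeloid miRs, 3 were detected on all arrays and miR-223-5p on none, with means from 9.53 to 10.12 in the Non-union group and from 10.01 to 12.00 in the Union group, and miR-223-3p was lower in the Non-union group at an unadjusted limma p of 0.05 (difference -1.13, adjusted p = 0.346) but not with scaling to the 75th percentile. The size of this difference rests largely on P20, where the merged signal of miR-223-3p was 12898 against 3276 to 3721 on the other Union arrays. Without P20 the difference was -0.60 (adjusted p = 0.286). MiR-223-3p passed an unadjusted limma p of 0.05 without P17, P18 or P20, and missed it when any other array was left out. The 2 endothelial miRs, both arms of miR-126, were detected on all arrays with means from 8.32 to 8.56 in the Non-union group and from 8.49 to 9.04 in the Union group. With the 75th percentile over detected miRs and without normalization, 1 of them was lower at an unadjusted limma p of 0.05. In these settings 11 and 16 of all 310 miRs were lower. Neither endothelial miR passed in the reported fit or with the remaining normalizations. The part of muscle, myeloid or endothelial cells in the miR-29 values was not tested.

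**Figure D4:**
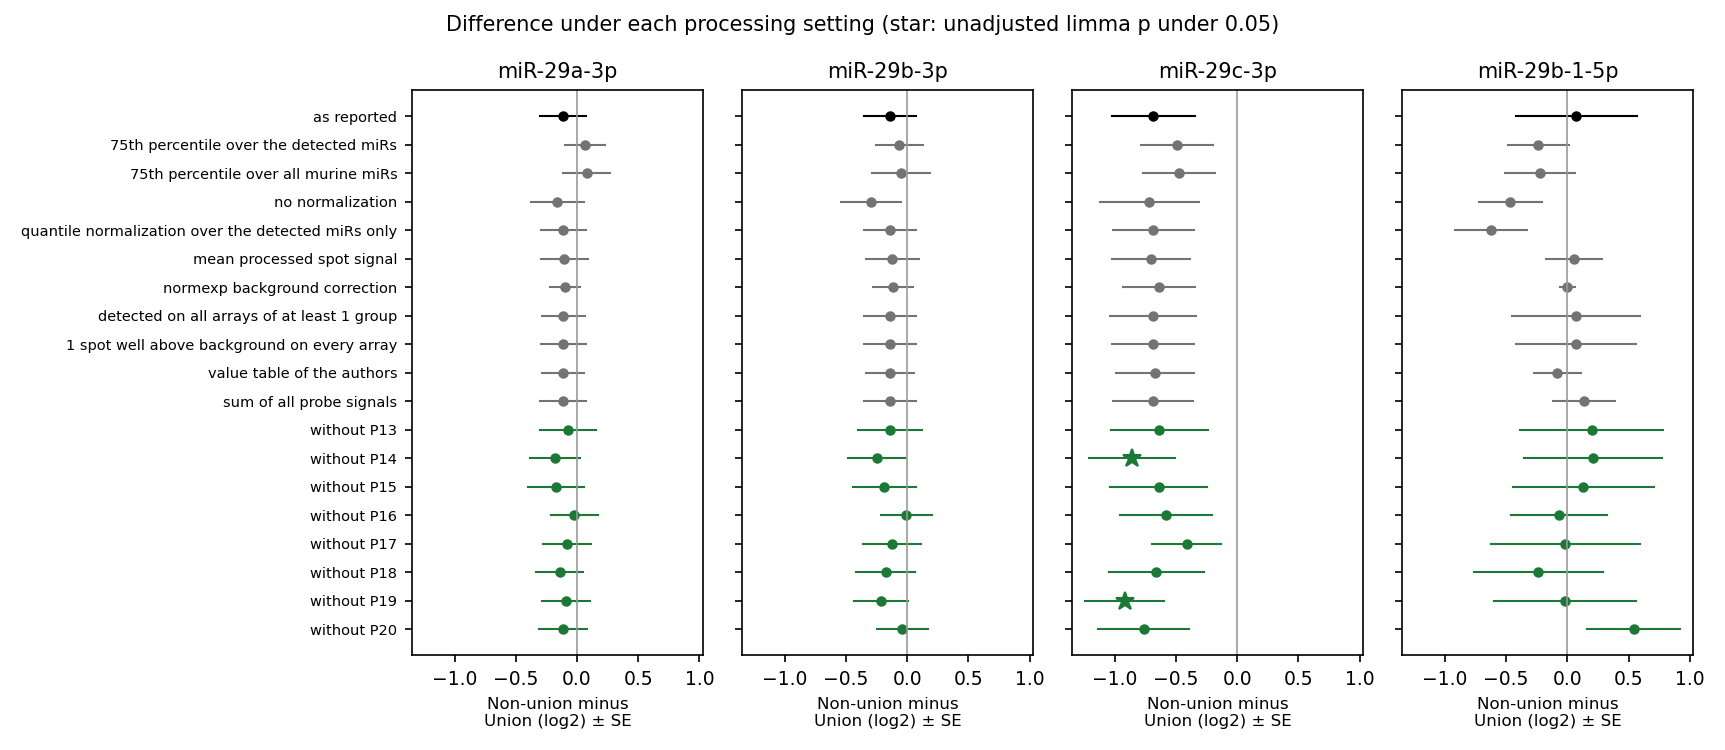
Difference in log2 signal, Non-union minus Union (horizontal axis), ± SE, of the 4 tested members as reported (black), under each other setting (grey) and with each array left out (green), with a star where the unadjusted limma p was under 0.05. The points of miR-29c-3p all lie below 0, between -0.92 and -0.41, whereas those of miR-29a-3p and miR-29b-1-5p fall on either side of 0.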

How the data were processed

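Callus RNA of 4 Non-union and 4 Union mice was labelled with Cy3 and measured on an Agilent miR array (8 arrays, 1 slide, 1 scan). Agilent Feature Extraction 10.10.1.1 was run by the authors, who deposited, per array, background-corrected intensity values on a linear scale per spot and merged per miR, and the calls of detection. A second deposited table, of log2 values, served as an alternative. The array design names mm9, another build than the RefSeq coordinates printed here.

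The merged signals were log2 transformed, with 0.1 where a miR was not detected, and quantile normalized over the 1079 murine miRs. Those detected on every array, 310 in all, were tested by lmFit and eBayes of limma 3.58.1 in R 4.3.3, two-sided, with Benjamini-Hochberg adjustment over all of them. Single values and correlations were tested by exact permutation (70 arrangements of the arrays for a difference). Python 3.11.15, numpy 2.4.6, pandas 2.3.3, scipy 1.17.1 and matplotlib 3.10.9 were used otherwise. The threshold for a single miR was an unadjusted p of 0.05, the p-value limit of the study. The study also counted miRs as relevant by fold change alone, which was not used here, and tested a larger set of detected miRs.

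Groups came from the sample labels. The members, the lists of matrix, osteoblast and cell type miRs and the rule for similar miRs (the 5 with the highest r per guide arm) were chosen with earlier results of these data known. Of the matrix and osteoblast lists, the miRs past the threshold are named. On simulated data from 310 miRs, the fit called after adjustment 40.5% of miRs given a log2 change of 1, 81% with a change of 2 and 96% with a change of 3. Residuals were shuffled over the arrays for each miR separately, which removes array effects that miRs share. All these changes were larger than the reported difference of any tested member, so that the rates do not apply to differences of that size. Alternatives were other normalizations, signals, background corrections and filters, the value table, and leaving out each array. Arrays have no read depth, and their number limits the precision.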

Additional observations from a re-analysis of the deposited data

Results flagged for a closer look

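In 24 groups of 4 arrays, covering the miR-29 arms and the marker lists, the gap between the outermost array and its neighbour was compared with the whole range of its group. Chance flags about 1 in 20 groups, so that 1.2 would be reached by chance, and 2 were found. The normalized log2 signal of miR-29c-3p on P14 was 9.57, apart from the other Non-union arrays at 8.76 to 8.88. Before normalization those arrays were further apart, with merged signals from 335 on P16 to 540.4 on P13, against 857 on P14. The mean log2 signal of the myeloid markers on P20 was 12.00, apart from the other Union arrays at 10.01 to 10.16.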

How the results depend on the processing

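MiR-29b-3p, miR-29c-3p and miR-29c-5p kept a negative difference under all alternatives run, and no member passed after adjustment. For miR-29b-3p and miR-29c-3p the filters among these cannot change the difference. Leaving out 1 array gave -0.18 to -0.02 for miR-29a-3p, -0.25 to -0.0048 for miR-29b-3p, -0.92 to -0.41 for miR-29c-3p, -0.87 to -0.36 for miR-29c-5p and -0.24 to 0.54 for miR-29b-1-5p, where the values without P16 (-0.07), P17 (-0.02), P18 (-0.24) and P19 (-0.02) had the opposite sign to the reported value. MiR-29a-3p turned to 0.066 with the 75th percentile over detected miRs (also in the exact permutation test) and to 0.080 with that over all murine miRs. MiR-29b-1-5p turned to -0.24 and -0.22 with these, to -0.46 without normalization, to -0.63 with quantile normalization over detected miRs and to -0.084 in the value table, and the exact permutation values turned likewise.

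The 43 miRs under an unadjusted p of 0.05 became 18 (without P17) to 115 (without P19) when 1 array was left out, with 20 without P15, 28 without P16 and 21 without P18. Other settings gave 35 to 51. The share of these miRs higher in the Non-union group was 69.8%, against 54.3% without normalization and 55.3% with quantile normalization over detected miRs. The median difference of all tested miRs moved from 0.15 to -0.10 and 0.03 with these settings, and to 0.03 with the normexp background correction.

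For the correlations, r of miR-29a-3p with miR-29b-3p was 0.49 with the 75th percentile, 0.88 without normalization and 0.40 to 0.86 with 1 array left out. Without normalization, r with miR-29c-3p was 0.91 for miR-29a-3p (exact permutation p = 0.00508) and 0.80 for miR-29b-3p (exact permutation p = 0.0213). Leaving out 1 array gave 0.34 to 0.63 and 0.39 to 0.65 for these pairs. With the 75th percentile, no normalization and quantile normalization over detected miRs, r with miR-29b-1-5p turned to 0.074, 0.53 and 0.17 for miR-29a-3p, to 0.71, 0.80 and 0.50 for miR-29b-3p and to 0.057, 0.57 and 0.48 for miR-29c-3p. Leaving out 1 array gave -0.58 to 0.23, -0.70 to 0.58 and -0.50 to -0.20 for them. The causes were not tested. A block for slide or scan could not be fitted with 1 slide and 1 scan. The signal error of a detected 5p arm reached 32.4%, for miR-29a-5p on P13, and signal over background limits these arms.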
